A study of Mus musculus with 8 samples.

Results

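The 10 genes described here are textbook targets of the transcription factor p53: Cdkn1a, Mdm2, Trp53inp1, Ccng1, Sesn1, Sesn2, Phlda3, Zmat3, Btg2 and Gadd45a. They were taken by symbol from the array's own gene names, and every probe that carried 1 of the 10 symbols was kept. This gave 12 probes of 39429, with 2 probes each for Cdkn1a and Trp53inp1 and 1 for each other gene. One probe per gene entered the test, so the 10 genes stood among 22921 tested. All 12 probes were well above background on all 8 arrays, and no spot of theirs was saturated.

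The arrays held RNA of mouse pro-B cells, the early B-lineage stage at which immunoglobulin heavy-chain genes are assembled. All 4 groups came from BALB/c Rag1 null animals, which lack a recombinase subunit and do not develop B cells past that stage. Adult bone marrow (BM) cells, from 2 mice per sort, received a retrovirus with Lin28b in the pMIG vector, or pMIG alone. Fetal liver (FL) cells, pooled from an average of 8 embryos at gestation day 16, received Let-7b in an MSCV vector, or the empty vector. Cells grew on OP9 stromal cells with IL-7, and GFP-positive cells were sorted 4 days after transduction. Each group held 2 arrays, labelled as separate sorts, so errors are given over n = 2 per group. Lin28b blocks maturation of the let-7 microRNAs, and the design pairs more Lin28b in adult cells with more let-7b in fetal ones.

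p53 is held low in unstressed cells by Mdm2, a ubiquitin ligase that is itself a p53 target and so closes a feedback loop. When DNA is damaged, or when other stresses free p53 from Mdm2, it binds paired half-sites in DNA and raises genes that halt the cell cycle, limit growth signalling, repair DNA or promote death. In pro-B cells the pathway is best known for its response to the DNA breaks of V(D)J recombination, which Rag1 null cells do not make.

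Sequences are shown for the microRNA that the FL cells received and for the parts of the target genes that bear on the measurements. The mature mouse let-7b strand (RefSeq, GRCm38.p6, chr15:85707325-85707346, plus strand) is printed with its seed, bases 2 to 8, in capitals.

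mmu-let-7b-5p: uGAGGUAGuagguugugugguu

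RefSeq start sites were found for 8 of the 10 genes, with 10 promoters in all; no entry was used for Trp53inp1 or Zmat3. The 250 bases before each start were searched for the p53 consensus element, 2 abutting half-sites that read alike on both strands, with the inner C and G of each half-site kept and at most 1 mismatch elsewhere. A match lay in 2 of the 10, and in 19 of 32851 RefSeq promoters of the same length (0.0578%). The matches are in capitals below, 51 to 32 bases before the upstream Cdkn1a start (GRCm38.p6, chr17:29090729-29090978, plus strand) and 195 to 176 bases before the Ccng1 start (chr11:40755287-40755536, minus strand). A match describes the letters and not binding, which was not measured.

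Cdkn1a promoter: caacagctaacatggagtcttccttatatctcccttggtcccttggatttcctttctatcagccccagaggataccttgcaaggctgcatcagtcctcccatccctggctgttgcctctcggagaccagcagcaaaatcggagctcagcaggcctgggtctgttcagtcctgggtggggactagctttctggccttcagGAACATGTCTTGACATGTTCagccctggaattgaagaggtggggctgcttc

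Ccng1 promoter: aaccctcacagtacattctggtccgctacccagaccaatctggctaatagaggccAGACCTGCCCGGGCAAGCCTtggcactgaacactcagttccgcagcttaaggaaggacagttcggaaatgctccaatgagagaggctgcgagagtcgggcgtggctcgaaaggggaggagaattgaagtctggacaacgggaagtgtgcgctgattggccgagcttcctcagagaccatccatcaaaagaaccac

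Cdkn1a and Trp53inp1 were each read by 2 probes, whose first 30 of 60 bases are shown because the probes of a gene did not give the same values. The first Cdkn1a probe (mm9, chr17:29237377-29237436) lists the accessions of both RefSeq transcripts of the gene and was printed in 10 copies. The second (chr17:29227986-29228045) lists 1 transcript. Both Trp53inp1 probes (chr4:11101174-11101233 and chr4:11092530-11092589) list the same RefSeq transcript.

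Cdkn1a, both transcripts: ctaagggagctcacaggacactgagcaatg

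Cdkn1a, 1 transcript: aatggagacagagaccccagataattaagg

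Trp53inp1, first probe: gtgtgtttatgggcacaatgttttctctca

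Trp53inp1, second probe: aactcctgtcctggtctcagtgaggcgagt

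Every level below is the log2 processed signal of a probe minus the 75th percentile of its array, so 0 is the brightness at that percentile, and levels of different probes are not compared. The 4 BM arrays lay on 1 slide, and each of 2 further slides held 1 FL empty-vector and 1 FL let-7b array. The 75th percentile of the processed signal was 1925 to 2234 on BM arrays and 271 to 488 on FL arrays, and 56.0% to 68.5% of probes were well above background. Replicates of a gene had a median SD of 0.08 in both BM groups, 0.29 with FL empty vector and 0.22 with FL let-7b. As a check of the labels, one Lin28b probe read 0.35 and 0.07 on the arrays of Lin28b cells, and neither BM control array showed it well above background. A second Lin28b probe read -5.86 and -5.75 with Lin28b and -6.58 and -6.32 with BM empty vector, well above background on 1 of those control arrays; which probe lies in the transgene was not looked up, and mature let-7b was not measured. Rag1 read 0.56 to 0.70 in BM and 3.07 to 3.69 in FL, and whether its probe lies in the deleted part was not looked up. The 12 pro-B markers on the array were detected on at least 1 array, with a summed level of 8.57 to 8.93 in BM and 9.76 to 10.2 in FL. Stromal markers, of which Lum and Postn were never above background, summed to 4.85 to 5.01 with BM empty vector, 5.42 to 5.95 with Lin28b, 3.46 to 4.06 with FL empty vector and 4.18 to 4.49 with let-7b. Myeloid markers summed to 2.94 to 3.32 in BM and 4.63 to 5.94 in FL, and T, NK and innate lymphoid markers (Cd3g and Ncr1 never above background) to -0.08 to 0.27 and 2.13 to 3.07. Hepatocyte markers (Alb, Apoa1, Fgb and Ttr never above background) summed to -0.27 to 0.02 in BM and 1.50 to 2.35 in FL.

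**Figure D1:**
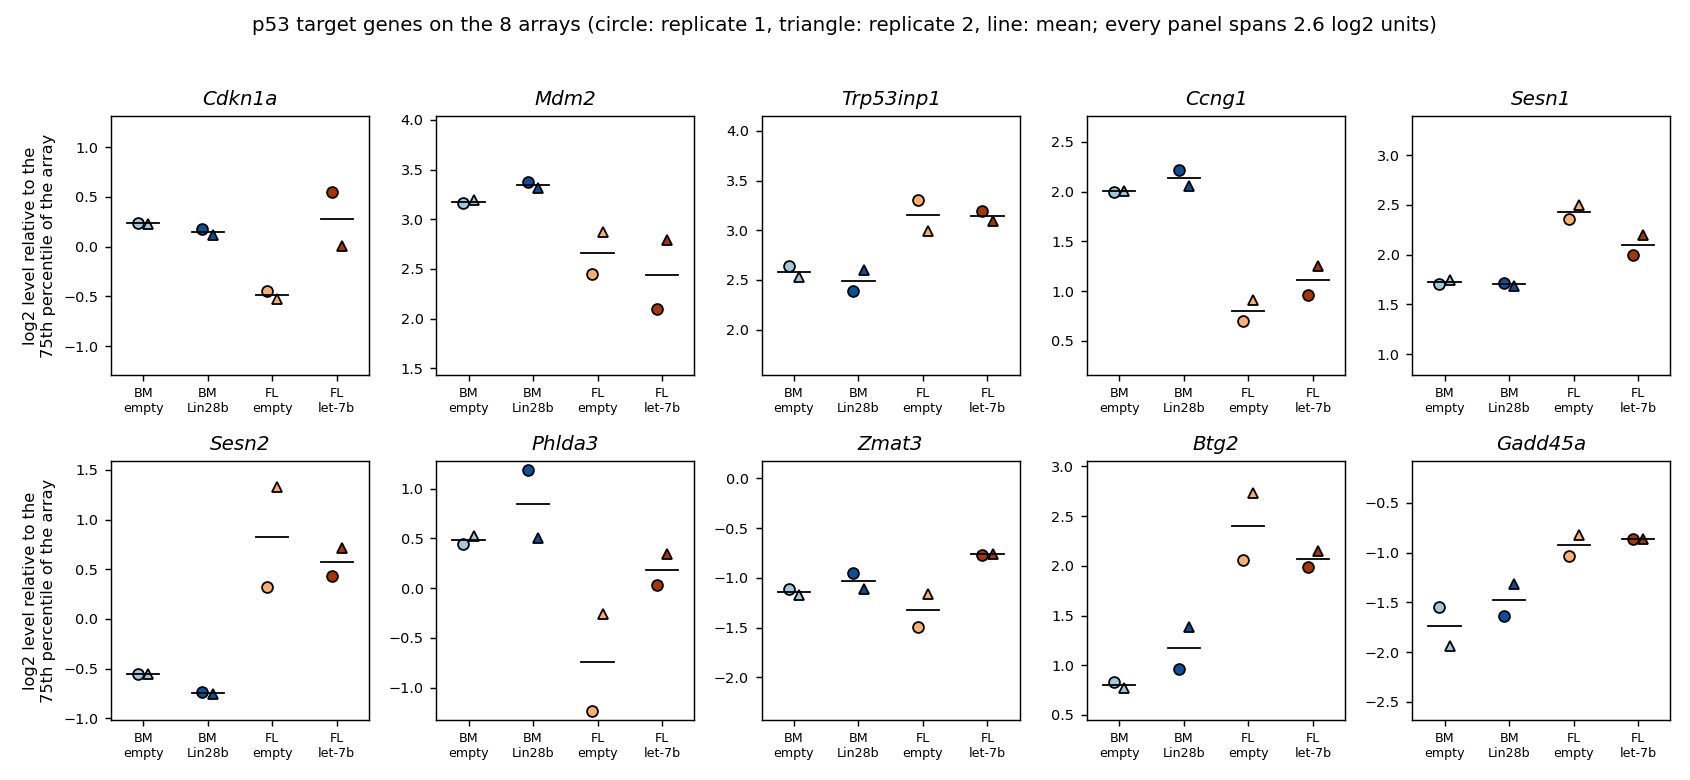
Level of the 10 p53 target genes on each array. The vertical axis of a panel is the log2 level relative to the array's 75th percentile, circles are replicate 1, triangles replicate 2 and lines the mean of the 2. The FL empty-vector arrays lie above both BM empty-vector arrays for Btg2, Sesn2, Sesn1, Gadd45a and Trp53inp1 and below them for Ccng1, Phlda3, Cdkn1a and Mdm2.

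Fetal and adult pro-B cells with empty vector were compared first. The p53 targets did not move as a block: 5 genes were higher in FL (Btg2, Sesn2, Gadd45a, Sesn1 and Trp53inp1) and 3 were lower (Ccng1, Phlda3 and Cdkn1a), while Mdm2 and Zmat3 did not pass. Changes were called at an adjusted p below 0.05 (limma, Benjamini-Hochberg over the 22921 genes). The 8 of 10 called stand beside 59.6% of all genes, the 5 higher beside 40.1% and the 3 lower beside 19.5%. The median difference of the 10 genes was 0.19, against 0.52 over all genes tested. Set against that median of all genes, the 5 higher genes lay at 1.07 (Btg2), 0.85 (Sesn2), 0.29 (Gadd45a), 0.18 (Sesn1) and 0.04 (Trp53inp1). The 3 lower genes lay at -1.72 (Ccng1), -1.75 (Phlda3) and -1.25 (Cdkn1a). The arrays of the tissues did not overlap for 9 of the 10 genes, and for 83.1% of all genes.

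Among the genes tied to the cell cycle, Btg2 and Gadd45a were higher in FL and Cdkn1a and Ccng1 lower. Btg2 is an antiproliferative cofactor that promotes removal of mRNA poly(A) tails. Its level was 0.83 and 0.77 on the BM arrays and 2.06 and 2.73 on the FL arrays. Both FL arrays lay above both BM arrays, by 1.60 ± 0.27 (SE), a 3.02-fold difference (limma adjusted p = 0.00428).

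Gadd45a, a stress protein that takes part in the arrest before mitosis, stood at -1.55 and -1.94 in BM and at -1.03 and -0.82 in FL. The FL arrays were the higher ones without overlap, by 0.81 ± 0.20 (limma adjusted p = 0.0154).

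Ccng1, an atypical cyclin that recruits a phosphatase to Mdm2, moved the other way. It read 2.00 and 2.01 on the BM arrays and 0.70 and 0.91 on the FL arrays. The replicates of each tissue lay close together, and FL was lower by 2.30-fold, a log2 difference of -1.20 ± 0.16 (limma adjusted p = 0.0021).

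Cdkn1a encodes p21, the inhibitor of cyclin-dependent kinases through which p53 arrests the cycle. By the probe of both transcripts it read 0.24 and 0.23 in BM and -0.45 and -0.53 in FL, lower in FL without overlap. The difference was -0.72 ± 0.20 (limma adjusted p = 0.0236). The 10 copies of this probe had an SD of 0.023 to 0.062 on an array, with 0 to 2 copies flagged as outliers and left out. The probe of 1 transcript gave the opposite sign: it read -5.03 and -5.24 in BM and -4.73 and -4.43 in FL, higher in FL by 0.56 ± 0.20 (limma adjusted p = 0.0546 over all kept probes). It was dim: the lowest level well above background was -5.65 and -4.49 on these FL arrays, and -6.87 and -6.91 on the BM arrays. Whether this higher limit in FL set the sign was not tested. With the mean of both probes the difference was -0.08 (limma adjusted p = 0.706), so the call for Cdkn1a belongs to the first probe.

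**Figure D2:**
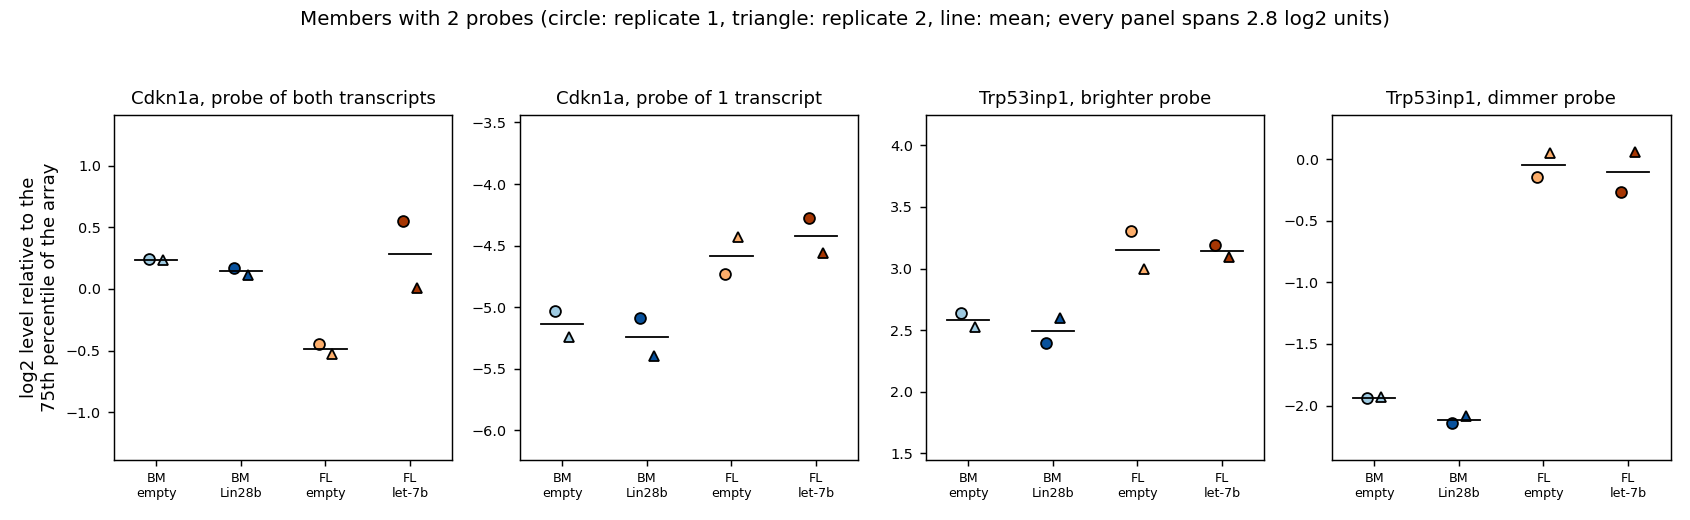
Levels by probe for the genes with 2 probes, Cdkn1a and Trp53inp1. The vertical axes give the log2 level relative to the array's 75th percentile, circles and triangles are replicates 1 and 2 and lines are means. The first Cdkn1a probe is lower with FL empty vector than with BM empty vector and the second higher. On the second FL empty-vector array the second Cdkn1a probe lies near the lowest level well above background. Both Trp53inp1 probes are higher in FL.

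Mdm2, the ligase that keeps p53 low, read 3.16 and 3.19 in BM and 2.45 and 2.87 in FL. Both FL arrays lay below both BM arrays, but the FL arrays differed from each other by nearly as much, and the difference of -0.52 ± 0.26 did not pass (limma adjusted p = 0.14). Its 95% interval ran from -1.17 to 0.14.

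The sestrins, which restrain mTORC1 signalling under stress, were both higher in FL. Sesn1 read 1.70 and 1.75 in BM and 2.36 and 2.50 in FL, and the tight replicates differed by 0.70 ± 0.13 (limma adjusted p = 0.00665). Sesn2 read -0.55 on both BM arrays and 0.32 and 1.33 in FL. The FL arrays were far from each other and still both above BM, by 1.37 ± 0.33 (limma adjusted p = 0.0147).

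Of the genes tied to survival and death, Phlda3 and Trp53inp1 differed in opposite directions. Phlda3, which competes with Akt for membrane lipids and so dampens its signalling, read 0.44 and 0.53 in BM and -1.24 and -0.26 in FL. The difference was -1.23 ± 0.38 (limma adjusted p = 0.0357), and the first FL array lay far below the second.

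Trp53inp1, a nuclear protein that takes part in p53-dependent death and autophagy, read 2.64 and 2.53 in BM and 3.30 and 3.0 in FL by the tested probe, a difference of 0.57 ± 0.16 (limma adjusted p = 0.0269). Its second probe read -1.94 and -1.93 in BM and -0.15 and 0.05 in FL. That difference, 1.89 ± 0.16 (limma adjusted p = 0.000759 over all kept probes), had the same sign and was larger.

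Zmat3, a zinc-finger protein that binds RNA and regulates splicing, read -1.11 and -1.17 in BM and -1.50 and -1.16 in FL. The tissues overlapped, and the difference of -0.18 ± 0.16 did not pass (limma adjusted p = 0.345).

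**Figure D3:**
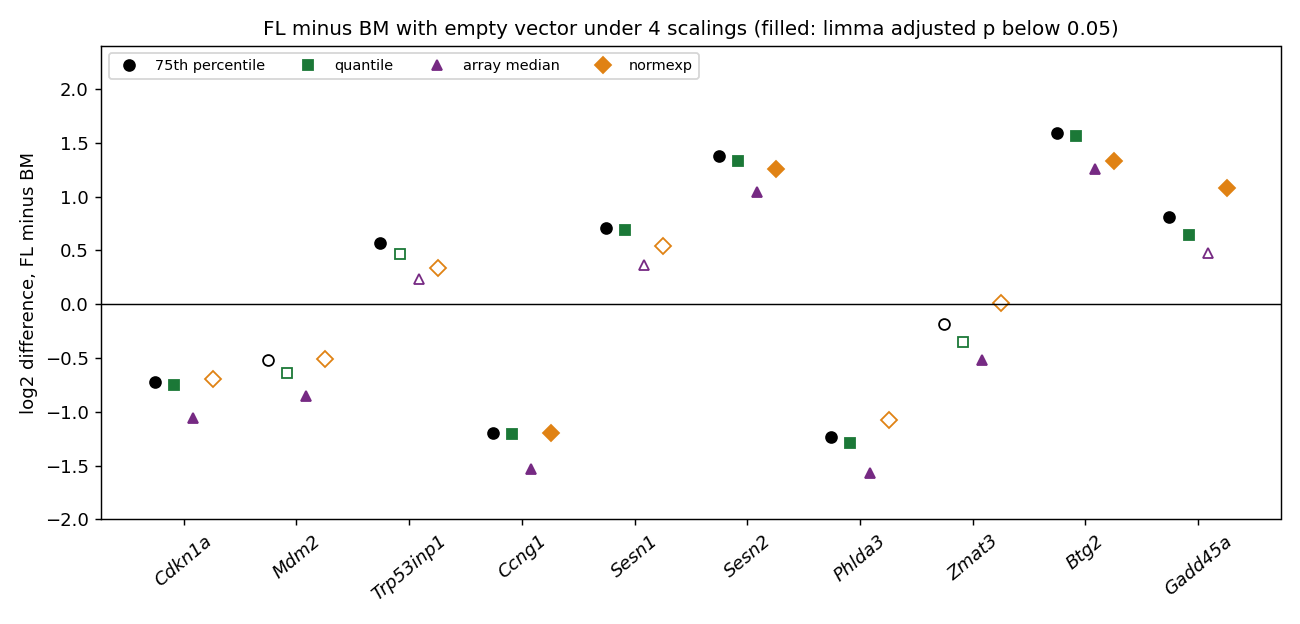
Difference FL minus BM with empty vector (vertical axis, log2) for each gene under 4 scalings of the arrays: 75th percentile, quantile, array median and normexp background correction. Filled symbols have a limma adjusted p below 0.05. Ccng1 (-1.54 to -1.20), Btg2 (1.26 to 1.60) and Sesn2 are filled under all 4, and Zmat3 crosses 0 with normexp.

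The direction of 9 of the 10 genes was the same under the 4 scalings shown, and Zmat3 turned from -0.18 to 0.01 with normexp. Over 19 alternatives, Ccng1 and Btg2 were called in all, Sesn1 in 17, Sesn2 in 16 and Gadd45a in 15. Phlda3 was called in 11, Cdkn1a in 10 and Trp53inp1 in 9. Of all calls in this comparison, 67.3% were higher in FL, a share that was 49.1% with quantile scaling, 52.9% with median scaling and 84.2% with normexp. The 10 genes split into 4 higher and 3 lower with quantile scaling, 2 and 5 with median scaling, and 3 and 1 with normexp. With median scaling Mdm2 (-0.85) and Zmat3 (-0.52) passed, and Gadd45a, Sesn1 and Trp53inp1 were not called. All 22921 genes gave 5882 higher and 6086 lower with quantile scaling, 7004 and 6225 with median scaling, and 8793 and 1646 with normexp. Leaving out 1 array left 3 genes called without the second BM empty-vector array, 4 without the first, and 5 without the first FL empty-vector array. Without either BM empty-vector array Sesn2 lost its call (limma adjusted p = 0.0668), as did Cdkn1a, Trp53inp1 and Phlda3, and without the second so did Gadd45a. Without the first FL empty-vector array Cdkn1a, Trp53inp1 and Phlda3 lost theirs, and without the second Cdkn1a and Gadd45a did. Cdkn1a and Trp53inp1 also lost their calls without either Lin28b array, and Phlda3 without either let-7b array, through the spread that all groups share.

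Tissue, vector and slide cannot be told apart in this comparison, nor can fewer cells of a type and less RNA per cell. Stromal markers differed by a median of -1.08 with 8 of 16 called lower and 3 higher. The sums of the myeloid, lymphoid and hepatocyte markers were higher. Only 4 hepatocyte markers were tested singly, and they were split: 2 lay above 0, with 2 called higher, and 2 lay below 0, with 0 called lower. The part of all these markers in the differences was not tested.

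The other genes of the pathway also lay on both sides. Of 16 genes for p53 and its regulators, 5 were called higher in FL and 5 lower, beside 40.1% and 19.5% of all genes. One of the 5 higher, Tbx2, a T-box repressor, was well above background in neither empty-vector group, so its call gives no direction between the tissues. The Trp53 transcript itself read -0.41 and -0.58 in BM and -0.43 and -0.50 in FL, with overlapping arrays and a difference of 0.03 ± 0.15 (limma adjusted p = 0.877). Foxo3, a transcription factor of stress and quiescence, was higher by 1.94 ± 0.17, and Trp63, a p53 relative, by 1.39 ± 0.15. Atr, the kinase that senses stalled replication, was lower, at -1.78 ± 0.18, and Cdkn2a, the locus of the Mdm2 inhibitor p19Arf and of p16Ink4a, lay at -1.49 ± 0.16. Mdm4, which binds p53 beside Mdm2, had a difference of -0.42 ± 0.32 (limma adjusted p = 0.303).

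Of 38 further p53 targets tested, 7 were higher and 15 lower in FL, with a median of -0.15, beside 40.1% higher, 19.5% lower and a median of 0.52 over all genes. Cd82, a tetraspanin of the cell surface, was higher by 1.51 ± 0.16. Ckap2, a spindle protein, was at -1.52 ± 0.13, and Sulf2, which trims heparan sulfate, at -3.10 ± 0.31. Zfp365 was at -3.36 ± 0.25, but it was well above background on 1 of the FL empty-vector arrays. The death genes Bax (-0.20 ± 0.26, limma adjusted p = 0.513) and Bbc3, which encodes Puma (0.23 ± 0.23, limma adjusted p = 0.427), did not pass.

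Paralogues of the 10 genes were called higher in FL for 8 of 13 and lower for 2, with a median of 0.81. Over all genes 40.1% were called higher and 19.5% lower, with a median of 0.52. Ccng2 differed by 2.09 ± 0.16 and so in the direction opposite to Ccng1. Cdkn1c, which encodes the kinase inhibitor p57, differed by 2.48 ± 0.24, opposite to the first Cdkn1a probe. Btg1 (1.39 ± 0.18) and Tob1 (1.04 ± 0.15), antiproliferative relatives of Btg2, were higher as Btg2 was. The 14 mitosis genes that p53 represses through p21 had a median of -0.17, with 1 called higher and 3 lower, beside the same shares of all genes. The mitosis gene called higher was Plk1, a mitotic kinase (0.55 ± 0.19), and those lower were Bub1 (-0.91 ± 0.15), Kif20a (-0.49 ± 0.14) and Cdk1 (-0.65 ± 0.21). The calls of these lists moved with the scaling: with quantile scaling 3 regulators were higher and 5 lower, 6 and 18 further targets, 8 and 2 paralogues, and 0 and 4 mitosis genes. With normexp the counts were 5 and 3, 5 and 6, 4 and 1, and 0 and 2. Over all 22921 genes, 5882 were called higher and 6086 lower with quantile scaling, and 8793 and 1646 with normexp. Plk1 was not called under quantile scaling, median scaling or normexp. With normexp Sulf2 lay at -1.46 (limma adjusted p = 0.0594) and Zfp365 at -1.60; Foxo3 lay at 0.95 with quantile scaling.

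With let-7b in FL cells none of the 10 genes passed. The count was 0 of 10 in limma's test at an adjusted p below 0.05, beside 0.0305% of all genes, and at an unadjusted p under 0.05 there were 3 (Cdkn1a, Zmat3 and Sesn1) beside 9.76%. The arrays did not overlap for 5 of the 10, beside 30.1% of all genes. The median difference was 0.03, against -0.06 over all genes. The fetal empty-vector arrays serve as the control here and also in the tissue comparison, so the differences of the same gene in both are not independent.

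The largest values belonged to Cdkn1a, Phlda3 and Zmat3. Cdkn1a read -0.45 and -0.53 with empty vector and 0.55 and 0.01 with let-7b. Both let-7b arrays were higher, and they were further from each other than the control arrays. The difference was 0.77 ± 0.20 (limma adjusted p = 0.324), with a 95% interval of 0.27 to 1.26, and it was 1.00 on the first FL slide and 0.53 on the second. The probe of 1 transcript read -4.73 and -4.43 with empty vector and -4.28 and -4.56 with let-7b, with overlap and a difference of 0.16 ± 0.20.

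Phlda3 read -1.24 and -0.26 with empty vector and 0.03 and 0.34 with let-7b, higher on both slides, by 1.27 and 0.60. Its difference of 0.93 ± 0.38 had a limma adjusted p of 0.519. It was 0.44 without the first FL empty-vector array and 1.42 without the second. Zmat3 read -1.50 and -1.16 with empty vector and -0.77 and -0.76 with let-7b, higher by 0.73 and 0.40 on the slides, with a difference of 0.57 ± 0.16 (limma adjusted p = 0.358).

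Ccng1 read 0.70 and 0.91 with empty vector and 0.96 and 1.26 with let-7b, a difference of 0.31 ± 0.16. Sesn1 was the gene whose arrays lay apart in the other direction, at 2.36 and 2.50 with empty vector and 2.00 and 2.20 with let-7b. Its difference was -0.33 ± 0.13 (limma adjusted p = 0.508), at -0.37 and -0.30 on the slides.

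The let-7b and control arrays overlapped for the other 5. Differences were -0.33 ± 0.27 for Btg2, -0.25 ± 0.33 for Sesn2, -0.22 ± 0.26 for Mdm2, -0.01 ± 0.16 for Trp53inp1 and 0.06 ± 0.20 for Gadd45a. Opposite signs on the slides were seen for Sesn2 (0.11 and -0.61), Trp53inp1 (-0.11 and 0.10) and Gadd45a (0.17 and -0.04). The 95% intervals of these 5 reached from -1.06 (Sesn2) to 0.56 (Sesn2).

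**Figure D4:**
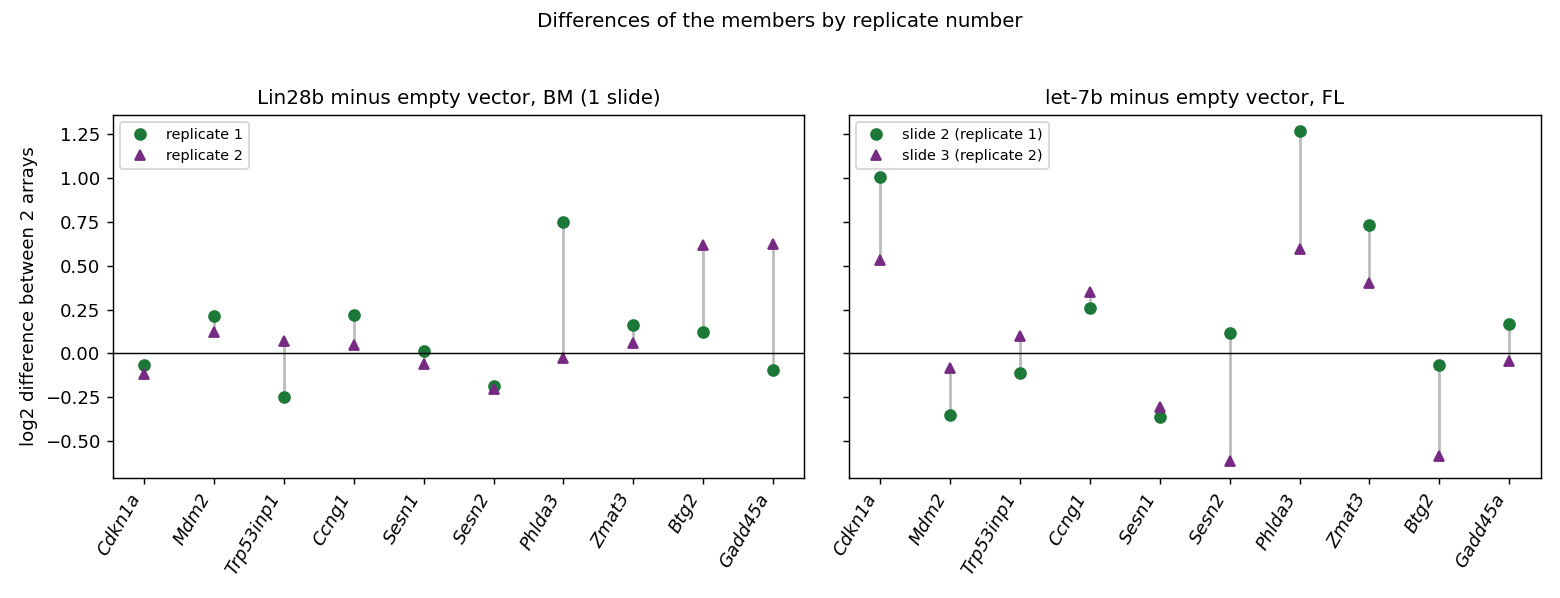
Difference between the treated and the empty-vector array of the same replicate number (vertical axis, log2), with BM on the left and FL on the right; in FL the numbers are also separate slides. Circles are number 1 and triangles number 2. Cdkn1a, Phlda3, Zmat3 and Ccng1 are above 0 on both FL slides and Sesn1, Mdm2 and Btg2 below 0 on both.

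In the pathway lists 0 genes were called with let-7b, and the medians were 0.03 for p53 and its regulators, 0.05 for the further targets, -0.01 for the paralogues and 0.08 for the mitosis genes. Trp53 had a difference of 0.16 ± 0.15. The smallest p among the regulators was that of Cdkn2a, at 0.70 ± 0.16 (limma adjusted p = 0.272). Among the further targets, Zfp365 lay at 1.26 ± 0.25 (limma adjusted p = 0.207) and Plxnb2, a semaphorin receptor, at -1.01 ± 0.21 (limma adjusted p = 0.236). Phlda1, the paralogue of Phlda3, lay at 1.09 ± 0.37 (limma adjusted p = 0.433). Bax lay at 0.02 ± 0.26 and Bbc3 at 0.15 ± 0.23. Across the stromal markers the let-7b difference had a median of 0.75, with 11 of 16 positive and 0 called, and their part in the values of the 10 genes was not tested.

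With Lin28b in BM cells the differences of the 10 genes lay between -0.19 (Sesn2) and 0.37 (Btg2). In limma's test 0 of 10 genes were called, beside 0% of all genes, and 0 of 10 had an unadjusted p under 0.05, beside 3.58% of all genes. The arrays did not overlap for 6 of the 10, beside 50.7%. The median difference was 0.12, against -0.04 over all genes, and the adjusted p of each was 1.

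Btg2 read 0.83 and 0.77 with empty vector and 0.96 and 1.39 with Lin28b, a difference of 0.37 ± 0.27 with both Lin28b arrays higher. Phlda3 read 0.44 and 0.53 with empty vector and 1.19 and 0.50 with Lin28b. Its difference of 0.36 ± 0.38 came from 1 of the 2 Lin28b arrays, and without that array it was 0.02.

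Gadd45a differed by 0.26 ± 0.20 with overlapping arrays. Mdm2 read 3.16 and 3.19 with empty vector and 3.37 and 3.31 with Lin28b, apart by 0.17 ± 0.26, where the standard error is that of all 4 groups. Ccng1 (0.13 ± 0.16) and Zmat3 (0.11 ± 0.16) also lay slightly higher with Lin28b, with no overlap.

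Sesn2 read -0.55 on both control arrays and -0.74 and -0.75 with Lin28b, a difference of -0.19 ± 0.33. Cdkn1a read 0.24 and 0.23 with empty vector and 0.17 and 0.11 with Lin28b, a difference of -0.09 ± 0.20 with a 95% interval of -0.59 to 0.40. Trp53inp1 (-0.09 ± 0.16) and Sesn1 (-0.02 ± 0.13) had overlapping arrays. The 95% intervals of the 10 genes lay between -1.01 (Sesn2) and 1.31 (Phlda3), which leaves room for larger differences than those measured. Their widths use the spread of all 4 groups, so the scatter of FL arrays enters them. For Sesn2 the SD was 0.002 and 0.013 in the BM groups and 0.71 with FL empty vector. For Phlda3 it was 0.06 with BM empty vector, 0.49 with Lin28b and 0.69 with FL empty vector.

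The pathway lists had 0 calls with Lin28b as well. Their medians were -0.01 for p53 and its regulators, 0.05 for the further targets, 0.10 for the paralogues and 0.00 for the mitosis genes. The smallest p of these lists was that of Tbx2 (limma adjusted p = 1). It was well above background on both Lin28b arrays and on no other array. Its mean with Lin28b lay 1.55-fold above the lowest signals well above background of any probe on the control arrays. Those signals are not a limit for the Tbx2 probe itself, and with normexp its log2 difference was 0.31. The smallest p among the further targets belonged to Plxnb2 (0.60 ± 0.21) and Ephx1, an epoxide hydrolase (0.60 ± 0.22). Stromal markers had a median of 0.88, with 14 of 16 positive and 0 called; their part in the values of the 10 genes was not tested.

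**Figure D5:**
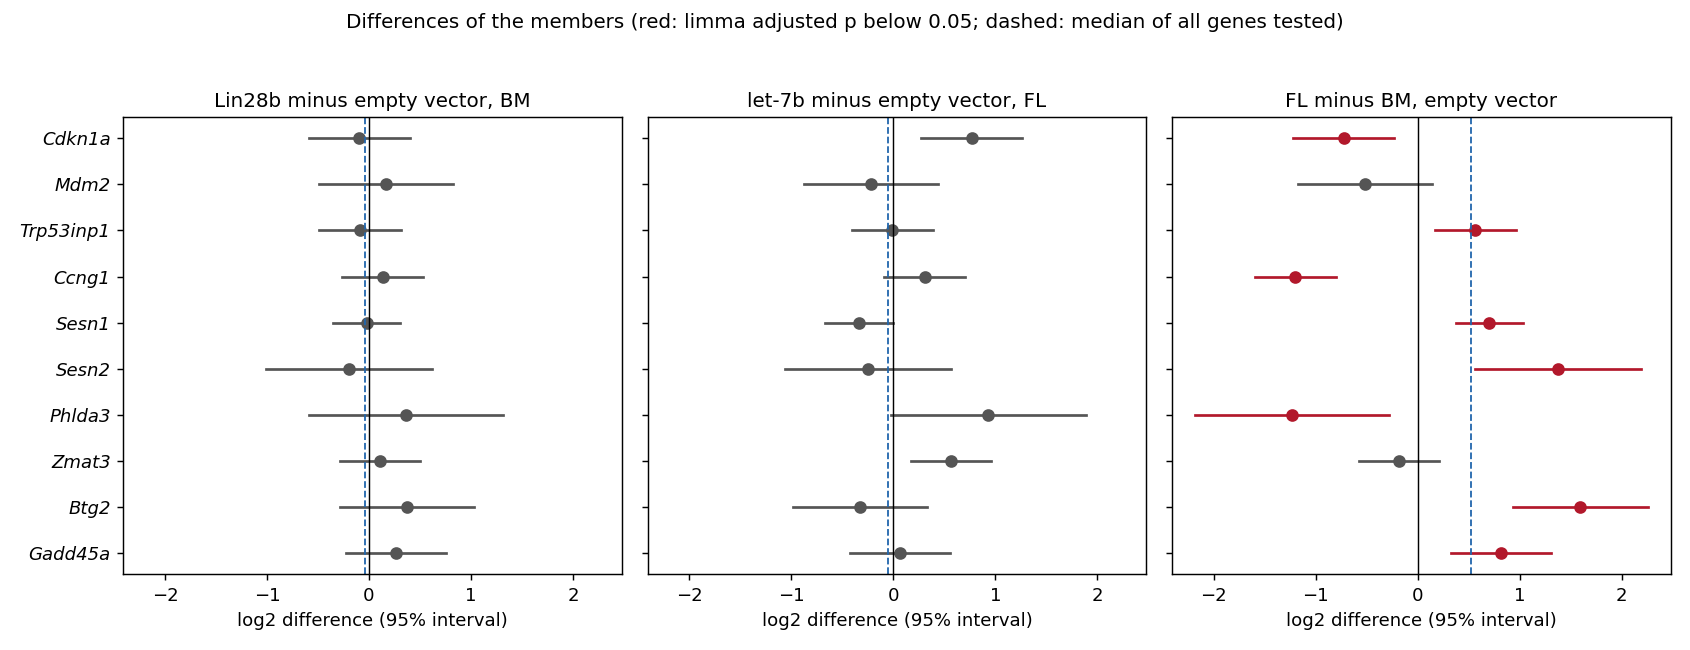
Differences of the 10 genes in the 3 comparisons. The horizontal axes give the log2 difference with limma's 95% interval, red marks an adjusted p below 0.05 and the dashed line is the median of all genes tested. All red points are in the FL minus BM panel, and the intervals of Cdkn1a and Zmat3 with let-7b lie above 0 without passing the adjusted threshold.

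The effects of the treatments were also set against each other in the same fit, as the Lin28b difference minus the let-7b difference, which share no array. None of the 10 genes passed (0 of 10 in limma's test, beside 0.00436% of all genes), and 1 of 10, Cdkn1a, had an unadjusted p under 0.05, beside 6.90% of all genes. Cdkn1a gave -0.86 ± 0.28 (limma adjusted p = 0.575), from -0.09 with Lin28b and 0.77 with let-7b. Btg2 gave 0.70 ± 0.38 (limma adjusted p = 0.849), from 0.37 and -0.33, and Phlda3 gave -0.57 ± 0.54 (limma adjusted p = 0.998).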

How the data were processed

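One-colour Agilent arrays (Cy3) measured RNA of 8 samples, 2 in each of 4 groups. The deposited scanner files hold spot intensities, background-corrected by Agilent Feature Extraction 9.5.3.1 per the file headers. A second file that the authors deposited gives log2 values; how they were normalized is not stated in the labels or headers. They followed log2 of the scanner signal with a slope of 0.949 to 1.01, the basis for reading them as log2. The table's medians were 7.22 for BM and 6.16 for FL, so it was used within a tissue only, and its centring is unknown. Probe positions are mm9 per the file headers, and no mm9 annotation of exons was used.

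Of 44397 spots, 1377 control spots were left out, and log2 of the processed signal was taken minus the array's 75th percentile over the other 43020. Copies of a probe were averaged without outlier spots. Left out were 31 probes with only outlier spots on an array and 10988 that were well above background on fewer than 2 arrays, which kept 28410. The probe of highest mean was tested for each of 22921 genes. In R 4.3.3, limma 3.58.1 (lmFit, eBayes) gave each group 1 mean in a fit of all 8 arrays, with Benjamini-Hochberg adjustment and calls below 0.05; plots used Python 3.11.15. Errors of differences are limma's standard errors. Each rests on 1 spread per gene shared by all 4 groups, although FL replicates spread more than BM replicates. An exact permutation test of 2 against 2 arrays cannot go below p = 0.333 (two-sided), so calls rest on limma's model of the spread. That model takes 4 residual degrees of freedom from the gene itself and 1.69 prior degrees of freedom shared between genes. Precision is limited by the number of arrays. The script was tested on simulated data with independent noise on each array. That setting holds no correlation between arrays of a slide, so errors under such correlation were not tested.

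The 10 genes and all lists were chosen with earlier results of these data known. The text names these 10, and from each list every called gene, or the 4 of smallest p where more than 4 or none were called, with Trp53, Mdm4, Bax and Bbc3 in addition; not every gene the rule allows is named. Slide numbers in FL equal replicate numbers: deviations of same-numbered arrays from their group means correlated at 0.517 in FL and -0.056 in BM. Where nothing in the labels separates cultures, p-values measure the spread between these samples. Alternatives were other scalings, background correction, filters, probe choices, variance settings, blocks and each array left out in turn. Median scaling and the fit of only the empty-vector arrays were added after the data were seen.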

Additional observations from a re-analysis of the deposited data

How the results depend on the processing

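With Lin28b and with let-7b, 0 of the 10 p53 targets were called under every alternative run. Between tissues 8 were called, against 4 with normexp, 4 with the slide as a random block and 5 in the fit of only the 4 empty-vector arrays, and 3 to 7 with 1 array left out. Calls between tissues over all 22921 genes fell with normexp too, from 9190 higher and 4463 lower to 8793 and 1646. Over all genes, Lin28b had 0 calls, against 2 with quantile scaling, 3 in the authors' deposited table, and 1 each with detection on all 8 arrays, every kept probe, the mean of a gene's probes, trend and robust eBayes, or only the 4 arrays of the tissue. Let-7b had 7, against 86 with quantile scaling, 86 with detection on all 8 arrays, 85 with trend and robust eBayes and 28 with median scaling. It had 0 with normexp, no filter, the authors' deposited table, only the 4 arrays of the tissue, or the replicate number as a block, and 0 to 522 with 1 array left out, the most without the first FL empty-vector array. The tissue comparison had 13653, and 9042 to 14256 with 1 array left out, the fewest without the first BM empty-vector array. The difference of the treatment effects had 1 call, against 23 with quantile scaling, 44 with detection on all 8 arrays, 56 with trend and robust eBayes, 2 with every kept probe, 0 with normexp or the mean of probes, and 0 to 48 with 1 array left out. The cause of these shifts was not tested.

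The replicate number as a block gave 0 calls with Lin28b and 0 with let-7b, and 13721 between tissues as a random block within tissue, where the same count of 8 p53 targets was called. In FL the pairing is also the slide, and Cdkn1a with let-7b had a standard error of 0.17 with the block (limma adjusted p = 0.318) against 0.20 without it.

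Signs turned for these genes, none of which had passed with the reported settings. With let-7b, Trp53inp1 went from -0.01 to 0.013 with quantile scaling, 0.0082 with median scaling and 0.055 in the authors' deposited table. With 1 array left out it ranged from -0.16 to 0.15, Gadd45a from -0.041 to 0.17, Sesn2 from -0.75 to 0.25, Btg2 from -0.66 to 0.011 and Mdm2 from -0.56 to 0.13. With Lin28b, Sesn1 went from -0.02 to 0.016 with normexp and to 0.0077 in the authors' deposited table, and Trp53inp1 ranged from -0.19 to 0.014 with 1 array left out. Between tissues Zmat3 went from -0.18 to 0.012 with normexp. Arrays of FL were dimmer than those of BM, which limits the comparison of dim probes such as the second Cdkn1a probe.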
